A study of Bos taurus with 30 samples.

Results

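Open chromatin of untreated bovine 2-cell and 4-cell embryos was compared with ATAC-seq, which uses a transposase to cut and tag accessible DNA. The comparison holds 6 of the 30 samples of the series, 3 of 2-cell and 3 of 4-cell embryos, taken by their stage labels and the absence of α-amanitin, the polymerase II inhibitor given to other samples. All 6 were pools of at least 500 cells from embryos produced in vitro and stripped of the zona pellucida. The 2-cell embryos were collected 30 to 32 h after insemination and the 4-cell embryos at 2 days. Each stage had 3 separate collections, so that a replicate is a pool of embryos, and a pool does not tell apart fewer open cells and less open chromatin in each cell. No cell type marker could be read from these peaks, since positions of genes on the assembly of the files were not analysed here.

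After fertilization, the cattle embryo divides with RNA and proteins stored in the oocyte. Minor transcription begins in the first cell cycles, while the main activation of the embryonic genome in cattle falls at about the 8-cell stage. Both stages compared here come before it, at a time when sperm and oocyte chromatin has been repackaged and accessible sites are being set up. In ATAC-seq an accessible site appears as a peak, a stretch covered by more cuts than the background of its library, and the fold enrichment of a peak is its pileup over that background.

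The 3 lists of 2-cell embryos held 1002, 1262 and 6440 broad peaks for replicates 1, 2 and 3. Those of 4-cell embryos held 42012, 22983 and 14355. Every 4-cell list was longer than every 2-cell list, in 9 of 9 pairs of libraries, and the means of 2901 ± 3067 and 26450 ± 14151 peaks (SD, n = 3) differed 9.12-fold. With 3 libraries against 3, the exact two-sided permutation test cannot go below p = 0.1, and it gave this value (adjusted p = 0.171 over 12 measures). The ratio depended on single libraries: it was 23.4 without 2-cell replicate 3 and 6.43 without 4-cell replicate 1.

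Depth differed between the libraries. The background level, the number of tags expected over a position by chance, grows with the tags of a library. It was at most 0.22 in 2-cell replicate 1, and 0.123 and 0.718 in replicates 2 and 3, against 0.494, 0.453 and 0.223 in the 4-cell replicates. Within each stage the library with the highest level had the longest list, and the 4-cell levels ranked as their lists did. Replicate 3 of the 2-cell embryos had a higher level than the 4-cell libraries, and their lists were 2.23 to 6.52 times longer than its own. Around the background level of that library, pileups from 6.97 times the background were listed as peaks, against 8.09, 8.83 and 13.5 times in the 4-cell libraries. In 2-cell replicates 1 and 2 this was higher than in every 4-cell library, at 18.2 times the upper limit of the level and at 24.4 times the level. At the other end, 2-cell replicate 1 and 4-cell replicate 3 had levels of at most 0.22 and of 0.223, and their lists differed 14.3-fold in peaks and 12.5-fold in covered length. That limit rests on 3 peaks and the level itself may be lower, so these libraries cannot be taken as equal in depth. The part of depth in the difference between the stages was not tested.

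**Figure D1:**
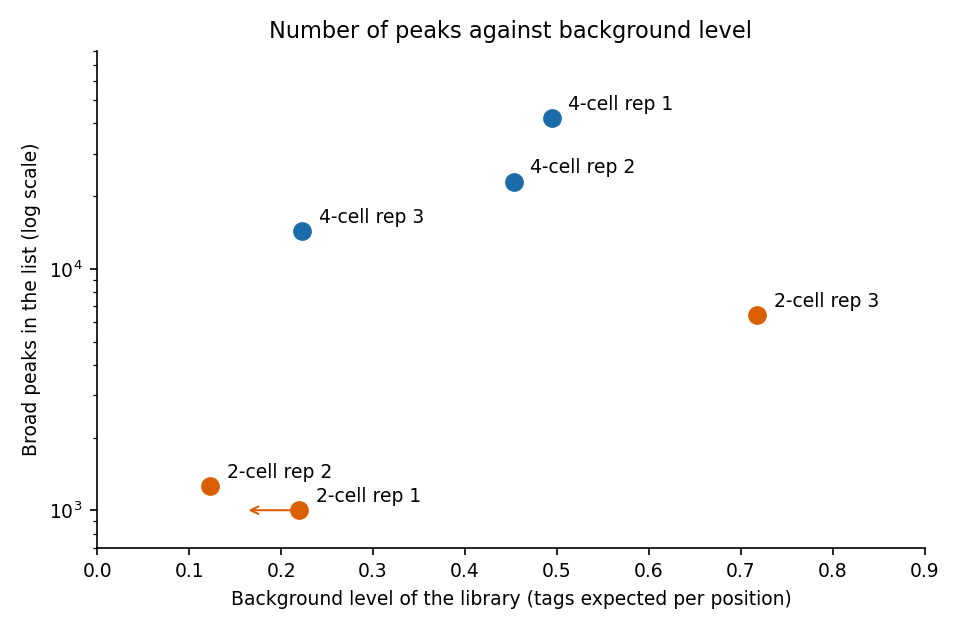
Number of broad peaks in each list (vertical axis, log scale) against the background level of the library (horizontal axis, tags expected per position), with 1 point for each of the 6 libraries. The arrow marks a level that is an upper limit. The 2-cell list of the deepest library (0.718) holds 6440 peaks and lies under all 3 4-cell lists.

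Placed chromosomes carried this difference, and unplaced scaffolds, the pieces of the assembly that have not been assigned to a chromosome, carried far less of it. On the placed chromosomes the 2-cell libraries had 778, 1023 and 5980 peaks and the 4-cell libraries 41125, 22425 and 13975. On unplaced scaffolds they had 224, 239 and 460 peaks and 887, 558 and 380 peaks, so that 2-cell replicate 3 was above 4-cell replicate 3 and the groups overlapped. The ratio of means was 9.96 on chromosomes (exact permutation test, two-sided, p = 0.1) and 1.98 on scaffolds (same test, p = 0.2). Unplaced scaffolds accordingly took 22.4%, 18.9% and 7.14% of the peaks in 2-cell lists and 2.11%, 2.43% and 2.65% in 4-cell lists, with no overlap (exact permutation test, two-sided, p = 0.1, adjusted p = 0.171). Unplaced scaffolds tend to hold repeated sequence, and how reads were spread over copies was not tested.

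**Figure D2:**
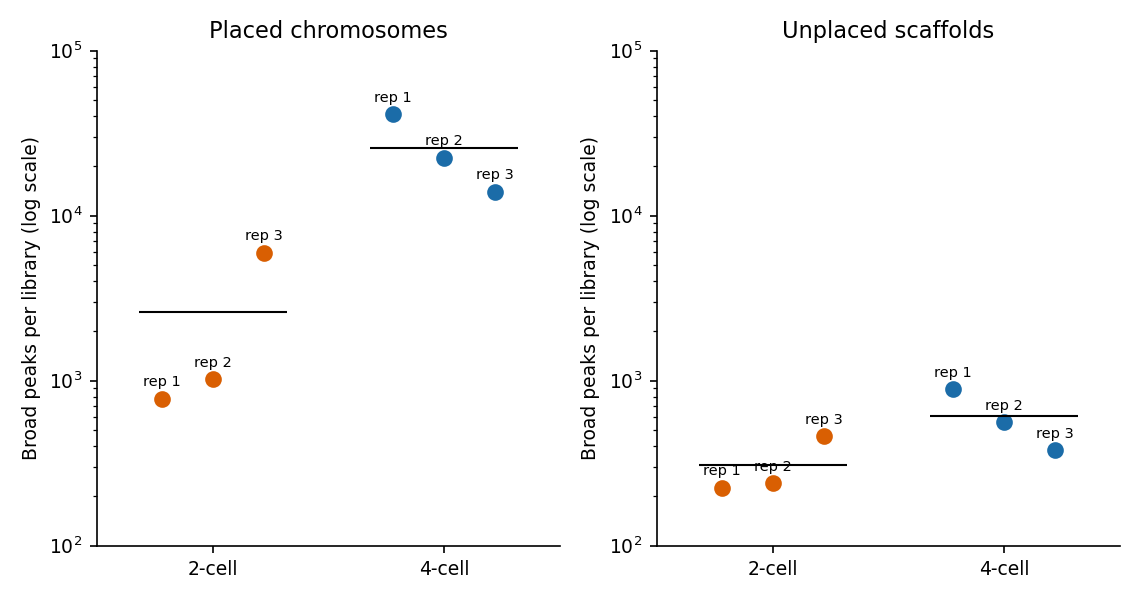
Peaks of each library on placed chromosomes (left) and on unplaced scaffolds (right), on the same log axis, with the mean of each stage as a line. The stages are apart on the chromosomes, with 5980 as the highest 2-cell and 13975 as the lowest 4-cell value, and overlap on the scaffolds.

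Every chromosome took part. On 30 of 30 chromosomes each 4-cell library had more peaks than each 2-cell library (100% of those compared), and the ratio of means ran from 7.19 to 13.4 with a median of 10.0. The largest ratio was on chromosome 19, where 2-cell libraries had 19, 31 and 156 peaks and 4-cell libraries 1466, 770 and 523. The smallest was on the X chromosome, where 2-cell libraries had 36, 30 and 182 peaks and 4-cell libraries 1025, 425 and 334. The X chromosome took 5.20%, 3.37% and 3.14% of the covered length of 2-cell lists and 2.58%, 1.90% and 2.26% of that of 4-cell lists, without overlap (exact permutation test, two-sided, p = 0.1, adjusted p = 0.171). In 2-cell embryos given α-amanitin the X share was 5.88%, 2.01% and 2.40%, in lists of 925, 8118 and 11083 peaks. Whether the X share differs with the length of the list or the sex of the pooled embryos was not tested. Peaks found in at least 2 replicates of a stage were merged into regions. Regions of 4-cell embryos were densest on chromosomes 18 and 19, with 10.5 and 9.35 per Mb, and sparsest on the X chromosome, with 2.27 per Mb. The median over chromosomes was 5.67 per Mb, with lengths taken up to the last peak of any list.

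The shape of the peaks differed less than their number. Median widths were 277, 207 and 318 bp in 2-cell lists and 377, 338 and 262 bp in 4-cell lists, which overlapped (exact permutation test, two-sided, p = 0.3). Among the 1002 peaks with the highest −log10 p of each list they were 277, 207 and 271 bp against 488, 355 and 289 bp, a difference of 126 bp in place of 58.5 bp that again compares whole lists with the top of longer ones. Peaks of the minimum width of 200 bp made up 26.1%, 46.9% and 21.1% of the 2-cell lists and 16.5%, 20.5% and 32.9% of the 4-cell lists. Peaks wider than 1000 bp numbered 66, 69 and 310 in 2-cell lists and 3820, 1309 and 468 in 4-cell lists, which was 24.1%, 24.8% and 16.0% of the covered length against 23.6%, 15.9% and 10.8%, a difference of -4.89 percentage points (exact permutation test, two-sided, p = 0.2). This difference was -27.7 points among peaks with a −log10 q of at least 3 (exact permutation test, two-sided, p = 0.1) and -0.325 points on autosomes (p = 0.9).

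Median fold enrichments of whole lists were 4.46, 4.21 and 3.75 for 2-cell and 3.93, 3.80 and 3.81 for 4-cell libraries (exact permutation test, two-sided, p = 0.4). These medians rest on lists of unequal length, since a long list reaches further down into weak peaks. Among the 1002 peaks with the highest −log10 p of each list, the median was 4.46, 4.46 and 5.07 in 2-cell and 8.10, 6.39 and 5.88 in 4-cell libraries. These 1002 are the whole list of 2-cell replicate 1 and only the top of the 4-cell lists, so a longer list gives a higher median by construction, and no change is read from it. The caller adds 1 to pileup and background, which lowers fold enrichment more in a shallow library. Unplaced scaffolds held 224, 234 and 324 of these 1002 peaks in 2-cell libraries and 93, 143 and 175 in 4-cell libraries. The highest single fold enrichment was close to 19 at both stages, at 18.6, 18.6 and 18.9 in the 2-cell and 18.5, 17.8 and 19.0 in the 4-cell libraries.

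To follow single sites, the peaks of all 6 lists were merged into 61686 regions, and the libraries with a peak in each were counted. A peak in all 3 4-cell and no 2-cell library was found in 3494 regions (5.66% of all regions), of which 3474 were on placed chromosomes (5.73% of the regions there) and 20 on unplaced scaffolds (1.91%). The opposite pattern, all 3 2-cell and no 4-cell library, was found in 0 regions (0% of all), and 7 regions (0.0113%) had at least 2 2-cell libraries and no 4-cell library. Peaks of both stages met in 4440 regions, and 251 regions had a peak in all 6 libraries. Most regions belonged to few libraries: 42232 had a peak in 1 4-cell and no 2-cell library, and 3271 in 1 2-cell and no 4-cell library. The number of regions by this rule follows the length of the lists. With the 1002 strongest peaks of each library, 714 regions had at least 2 4-cell libraries, of which 460 lay outside the 2-cell regions, and 178 of 431 2-cell regions lay outside the 4-cell regions.

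Between 32.0% and 62.6% of the peaks of a 2-cell library were found again in a 4-cell library. On placed chromosomes, 62.6%, 54.5% and 39.8% of the peaks of 2-cell replicate 1 were overlapped in 4-cell replicates 1, 2 and 3. For 2-cell replicate 2 the values were 62.3%, 54.4% and 49.6%, and for replicate 3 they were 50.9%, 41.8% and 32.0%. The other 2-cell libraries covered fewer of them, between 3.46% and 33.0% in the 6 pairs. In the other direction, 2-cell libraries covered 1.18% to 13.7% of the 4-cell peaks, the highest 3 values all in 2-cell replicate 3. Other 4-cell libraries covered 18.7% to 55.2% of the 4-cell peaks and the GV (germinal vesicle) oocyte libraries 44.5% to 50.2%. Coverage of this kind rises with the length of the covering list. Lists of 1002 peaks each were also compared, with unplaced scaffolds included, unlike above. Scaffolds held more of these peaks in each 2-cell list than in each 4-cell list. In this setting 2-cell peaks were covered in other 2-cell lists by a mean of 30.5% (27.2% to 33.5%). In 4-cell lists they were covered by 29.5% (20.4% to 38.3%). Peaks of 4-cell libraries were covered in other 4-cell lists by 43.5% (40.0% to 46.4%). These 1002 are the whole list of 2-cell replicate 1 and only the top of the 4-cell lists. The 4-cell peaks compared here are thus the strongest of longer lists, and no change is read from these shares. The pairs share libraries, so that no test was made.

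**Figure D3:**
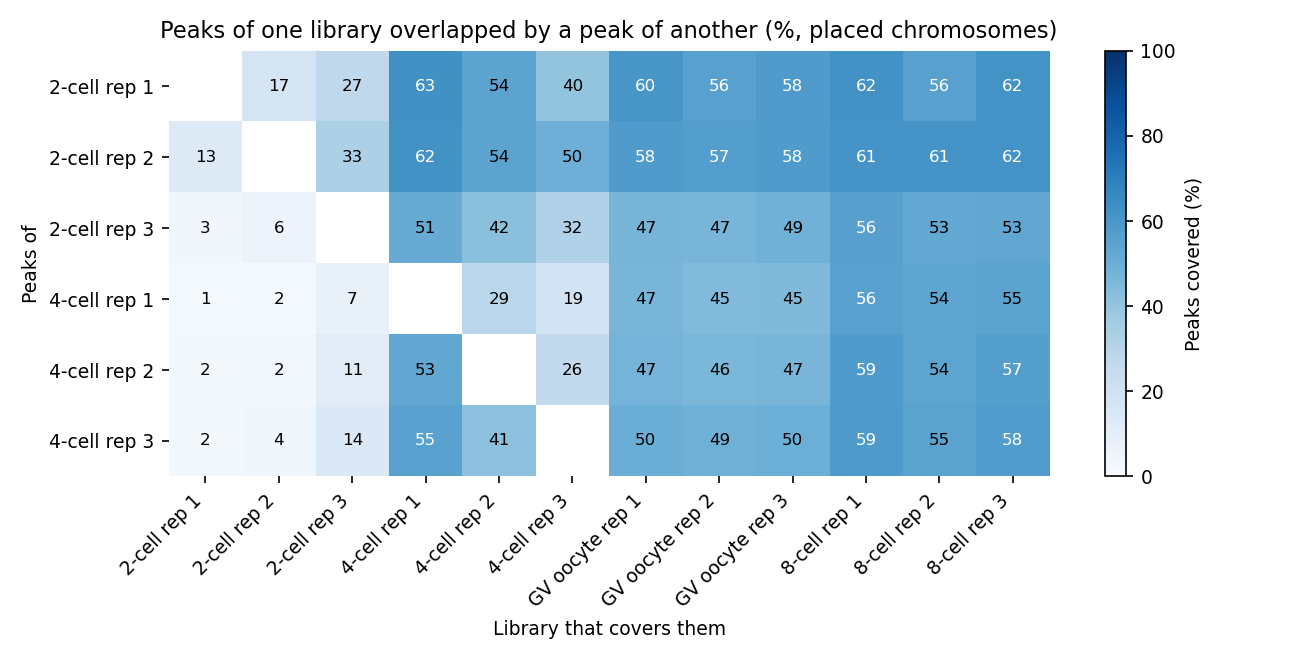
Percentage of the peaks of each of the 6 libraries (rows) on placed chromosomes that overlap a peak of another library (columns), including the GV oocyte and 8-cell libraries. The 4-cell rows are at 1.18% to 13.7% in the 2-cell columns and at 44.5% to 50.2% in the GV oocyte columns.

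The share of 4-cell peaks also listed at the 2-cell stage was highest among the strongest peaks and differed between the 2-cell libraries. Of the 100 peaks of 4-cell replicate 1 with the highest −log10 p on placed chromosomes, 43, 59 and 84 were overlapped in 2-cell replicates 1, 2 and 3. For 4-cell replicate 2 these numbers were 71, 73 and 90, and for 4-cell replicate 3 they were 81, 82 and 94. Coverage fell steadily further down the lists. Of the top 1000 peaks of 4-cell replicates 1, 2 and 3, 2-cell replicate 1 covered 12.9%, 15.5% and 14.0%, replicate 2 covered 20.9%, 23.1% and 22.0%, and replicate 3 covered 53.9%, 55.3% and 49.0%. Of the top 10000, 2-cell replicate 3 covered 20.4%, 19.1% and 17.3%, and the other 2-cell libraries at most 4.92%. Over the same ranks, 4-cell lists covered each other by 83.1% to 97.2% and then by 40.9% to 70.9%. GV oocyte lists covered at least 88.6% of the top 1000 of each 4-cell library. The 4-cell list of replicate 3, at a lower background level than 2-cell replicate 3, covered 86.5% and 83.1% of the top 1000 peaks of the other two.

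**Figure D4:**
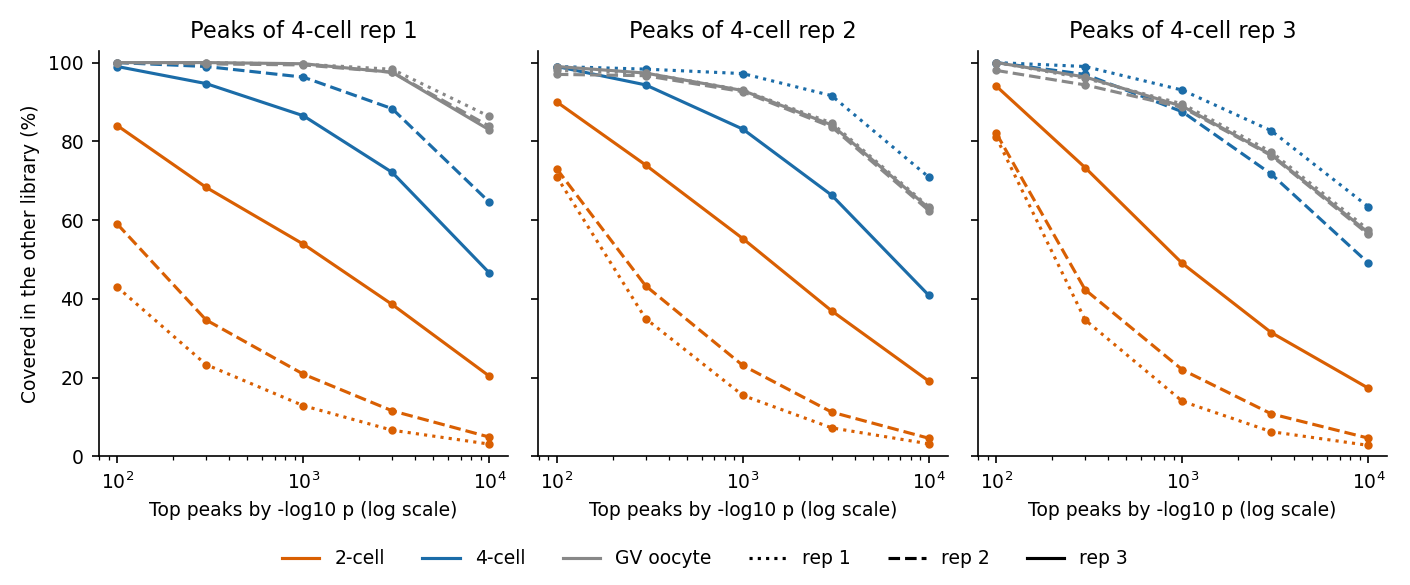
Percentage of the top peaks of each 4-cell library (panels; ranks on a log axis, by −log10 p, placed chromosomes) that overlap a peak in the other libraries. Lines for 2-cell libraries fall from 43% to 94% at 100 peaks to 2.82% to 20.4% at 10000 peaks, under those of 4-cell and GV oocyte libraries at every rank.

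Median strength at the 4-cell stage mostly rose with the number of 2-cell libraries that held the site. Among 5442 placed regions with a peak in all 3 4-cell libraries, 3474 had no 2-cell library, 1571 had 1, 277 had 2 and 120 had all 3. In 4-cell replicate 1 the median fold enrichment was 5.13, 5.97, 6.57 and 6.53 over these classes. In replicate 2 it was 4.17, 4.68, 5.22 and 6.22, and in replicate 3 it was 4.08, 4.39, 4.76 and 6.04. The order held in all 3 libraries, except between the last classes of replicate 1, and the interquartile ranges of neighbouring classes overlapped throughout. The peaks also covered more of these regions, with medians of 586, 651, 710 and 833 bp in 4-cell replicate 1. Fold enrichment here is the largest of any peak in the merged region, and median region widths were 749, 814, 840 and 930.5 bp over the classes. A wider region can hold a higher value and meet more peaks of other libraries, and the part of width was not tested. GV oocyte replicate 1, which had no part in defining the classes, had a peak in 89.8%, 95.9%, 96.8% and 100% of them, with median fold enrichments of 5.31, 5.90, 6.21 and 6.51. In the 8-cell libraries the order did not hold throughout: replicate 1 had a peak in 95.8%, 98.5%, 97.5% and 88.3% of the classes, and the medians were 4.87, 5.36, 5.44 and 5.70 in replicate 2 and 5.25, 5.79, 5.64 and 5.52 in replicate 3.

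**Figure D5:**
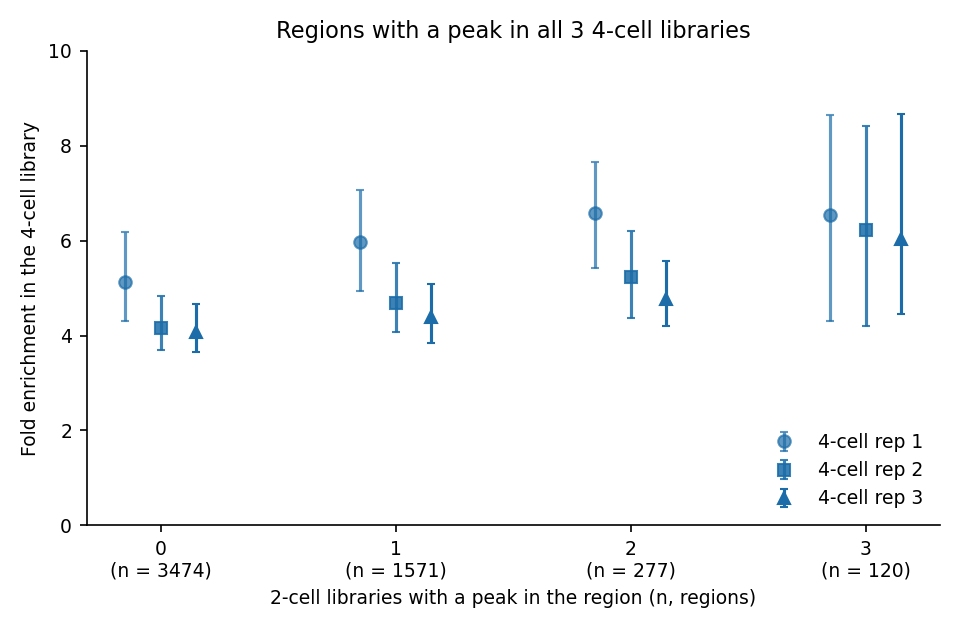
Fold enrichment in each 4-cell library (median, with bars from the 25th to the 75th percentile) at placed regions with a peak in all 3 4-cell libraries, by the number of 2-cell libraries with a peak there. Medians run from 4.08 to 5.13 at the 3474 regions with none and from 6.04 to 6.53 at the 120 regions with all 3, and the bars overlap.

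Most sites that were in all 3 4-cell libraries and absent from the 2-cell lists were not confined to the 4-cell stage. Of the 3474 on placed chromosomes, 89.8% overlapped regions of GV oocytes, 95.6% those of 8-cell embryos, 97.1% those of morula, 92.6% those of the inner cell mass (ICM) and 88.0% those of embryonic stem cells (ESC). Regions of all 5 groups overlapped 2802 of them (80.7%), and 132 (3.80%) were in every later group without being in GV oocytes. Regions of no other group overlapped 39 (1.12%). Sites of a single 4-cell library were less often seen elsewhere: of 41840 on placed chromosomes, 21.1% overlapped GV oocyte and 32.5% 8-cell regions, and most of these sites were of replicate 1. These shares grow with the width of a site, whose median was 749 bp in the former and 280 bp in the latter, and with the number of regions at the other stage, 33347 in GV oocytes and 161497 in morula. Over all peaks of a 4-cell library outside the 2-cell regions, the share in GV oocyte regions was 47.0% ± 2.22 (SD, n = 3). That in 8-cell regions was 56.7% ± 1.45 and that in morula regions 61.6% ± 0.156. Of all peaks of 2-cell replicates 1, 2 and 3, 67.5%, 62.9% and 49.8% overlapped GV oocyte regions. For 8-cell regions these shares were 67.7%, 65.3% and 57.1%, and for morula regions 63.9%, 62.4% and 57.3%. Placed sites of all 3 4-cell libraries that 1, 2 or 3 2-cell libraries also held overlapped GV oocyte regions at 95.9%, 98.2% and 100%.

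Ranked by mean fold enrichment, the first 10 sites in all 3 4-cell and no untreated 2-cell library were spread over 10 chromosomes. The first was a region of 365 bp at chr10:42834714-42835078 (ARS-UCD1.2), with fold enrichments of 9.87, 7.81 and 7.38 in 4-cell replicates 1, 2 and 3, a mean of 8.35 ± 1.33 (SD, n = 3). The next were chr21:26823712-26824149 with 9.48, 6.76 and 7.78, and chr23:48004399-48005031 with 7.42, 8.73 and 7.43. At chr20:17977361-17977723 and chr1:66293564-66294395 the replicates were far apart, with 8.15, 10.5 and 4.50 and with 12.2, 6.68 and 3.83. The other 5 sites, at chr5:84799067-84799614, chr8:112179262-112179575, chr3:9644066-9644453, chr24:3322163-3322495 and chr6:104818436-104819147, had means between 7.38 and 7.70. All 10 had peaks in all 3 GV oocyte, all 3 8-cell and all 3 morula libraries. Over the whole series, each was in 20 to 26 of the 30 libraries, and in 13 to 18 untreated ones. Except at the sites on chromosomes 10 and 20, the treated libraries with a peak must include at least 1 α-amanitin 2-cell library. Those sites were therefore absent from the untreated 2-cell lists only, not from every 2-cell list. Both exceptions in later cells lay on chromosomes 8 and 24: the site on chromosome 8 was in 1 ICM and 0 ESC libraries, and that on chromosome 24 in 3 ICM and 0 ESC libraries. These sites were chosen for their 4-cell values, which are therefore a description.

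Sites of all 6 libraries recurred widely in the series. Of the 251, 131 were on unplaced scaffolds and 120 on chromosomes, and 137 had a peak in all 21 untreated libraries. The mean fold enrichment over the 251 was 6.95, 6.82 and 6.96 in 2-cell and 7.46, 7.03 and 7.16 in 4-cell libraries, higher in each 4-cell library, by 0.310 on average (exact permutation test, two-sided, p = 0.1, adjusted p = 0.171). The 1 added by the caller lowers such values more in shallow libraries. Background levels of 2-cell replicates 1 and 2 were below those of all 4-cell libraries, and that of replicate 3 was above them. The part of depth in this difference was not tested. With 1 library left out, the sites were chosen anew as those in all libraries that remained. The difference was then 0.715 over 467 sites without 2-cell replicate 1 and 0.187 over 250 sites without 4-cell replicate 1. Of the 251 sites, 31 were on chromosomes and not in all 21 untreated libraries. Over these 31 the difference was 0.125 (exact permutation test, two-sided, p = 0.8). Over the 120 on chromosomes the values were 6.72, 6.91 and 6.42 and 7.22, 6.78 and 7.08, and the groups overlapped (exact permutation test, two-sided, p = 0.2). The strongest was chr9:20771812-20772097, at 18.1, 18.4 and 14.5 in 2-cell and 18.5, 15.7 and 19.0 in 4-cell libraries. It was followed by chr17:5546502-5546993, chr1:6042796-6043215, chr2:40600373-40600730 and chr6:109018593-109018956, where 2-cell values lay between 13.5 and 18.6 and 4-cell values between 15.0 and 17.7. These 5 sites had a peak in all 30 libraries.

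Sites in at least 2 2-cell libraries and no untreated 4-cell library were few. Each of these 7 regions was on a placed chromosome and had exactly 2 2-cell libraries. On the X chromosome, chrX:17920059-17920302 had fold enrichments of 8.04 in replicate 1 and 4.82 in replicate 3, and chr25:28248294-28248568 had 6.77 in replicate 1 and 4.22 in replicate 2. The others had means from 3.44 to 4.52, at chr6:15955605-15955817, chr4:21929506-21929729, chr24:37826598-37826966, chr20:32579935-32580318 and chr27:36698800-36700177. GV oocytes had a peak at 1 of the 7, that on chromosome 20, where all 3 libraries held it. The site on chromosome 4 was seen in no other untreated library. Of the sites of a single library, scaffolds included, 13.3%, 7.34% and 7.47% overlapped GV oocyte regions for 2-cell replicates 1, 2 and 3 and 28.0%, 10.1% and 7.96% for 4-cell replicates 1, 2 and 3, so that the stages overlapped. For 8-cell regions the shares were 16.4%, 14.7% and 17.2% against 38.8%, 23.5% and 18.6%.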

How the data were processed

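ATAC-seq libraries of 2-cell and 4-cell control embryos (3 each) were analysed, with 15 other control libraries for context. Per the labels, reads were trimmed with Trim Galore and cutadapt 0.4.0, aligned to ARS-UCD1.2 with BWA 0.7.17 and filtered with SAMtools 1.7, and the authors removed duplicate and mitochondrial alignments. The authors called broad peaks with MACS2 2.1.1 at a q value of 0.05, extending reads to 200 bp around the cut. The deposited lists belong to single libraries, neither pooled nor set to equal depth, so depth enters every count. The deposited fold enrichment is a ratio of pileup to local background, and the deposited −log10 p and −log10 q values are averages over a peak. The deposited score and the deposited start and end positions are given beside them, and the score was not used. The number of reads behind each list was not used here. Background levels were solved from peaks whose values match a whole-number pileup (tolerance 0.0001 on −log10 p, at least 3 peaks), and precision is limited by 3 libraries per stage.

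Regions of a stage needed peaks of at least 2 replicates, and 1 bp in common made regions shared. The named regions were the 10 strongest of all 3 4-cell and no 2-cell libraries, the 5 strongest of all 6, and those of at least 2 2-cell and no 4-cell libraries, on placed chromosomes. The 6 libraries were compared by exact permutation tests, two-sided, adjusted with the Benjamini-Hochberg method, using scipy 1.17.1, pandas 2.3.3 and numpy 2.4.6 under Python 3.11.15, and figures were drawn with matplotlib 3.10.9. In 200 simulated trials the overlap functions made 0 errors. Members and lists were chosen with earlier results of these data known. Comparisons at single pairs of background levels, placed chromosomes alone, ranks and pairs of libraries were added after seeing the data. The gene table at hand has another assembly, so promoters, genes, cell type markers, motifs and sequences of regions were not analysed here.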

Additional observations from a re-analysis of the deposited data

How the results depend on the processing

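The number of peaks and the covered length, 9.12 and 9.70 times higher on average in 4-cell libraries, the lower shares of length on the X chromosome and unplaced scaffolds, and the difference at regions of all 6 libraries kept their direction under every alternative run for them. Their size did not: with equal numbers of peaks the covered length differed 1.13-fold and the groups overlapped (exact permutation test, two-sided, p = 0.5), and leaving out 1 library gave 6.28 (without 4-cell replicate 1) to 27.0 (without 2-cell replicate 3). The cause of the changes below was not tested unless stated. Some differences changed sign. The median −log10 q (0.187 higher in 4-cell lists) became -1.02 among peaks with −log10 q of at least 3, -0.882 for means, and lay between -0.0266, without 4-cell replicate 1, and 0.316 when 1 library was left out, and the median fold enrichment (-0.292) became 2.13 with an equal number of top peaks, where lists have the same length by construction. Region counts followed the rule. From 677 2-cell, 15117 4-cell, 14468 gained, 649 shared and 29 lost regions they became 296, 4103, 3820, 283 and 13 with −log10 q of at least 3, 431, 714, 460, 254 and 178 with equal numbers, 7757, 58432, 53968, 4464 and 3278 with peaks of any replicate, and 256, 5731, 5480, 251 and 6 with peaks of all 3. Autosomes alone left 422 2-cell, 403 shared and 113 regions of all 6 libraries, placed chromosomes alone 440, 420 and 120, and equal numbers 144 of all 6. Covering at least 50% gave 49 lost regions. Leaving out 1 library gave 282 to 677 2-cell, 6084 to 15117 4-cell, 5505 to 14842 gained, 275 to 637 shared and 3 to 100 lost regions. Regions with a peak in all libraries that remained numbered 250 to 467. Gained regions were 5505 without 4-cell replicate 1 and 7452 without replicate 2. Shares of 4-cell peaks outside 2-cell regions in GV oocyte, 8-cell and morula regions were 79.3%, 86.5% and 87.3% with −log10 q of at least 3, 93.5%, 95.2% and 94.1% with equal numbers, 44.2%, 52.5% and 56.6% with 50% covered and 42.0%, 52.5% and 58.2% with any replicate. For morula it was 61.8% with fold enrichment of at least 3, 62.0% on autosomes, 62.0% with all 3 replicates, 62.1% on placed chromosomes and 61.5% to 62.0% without 1 library. The surplus of other 4-cell over 2-cell libraries in covering 4-cell peaks, 31.9 percentage points, was 14.0 with equal numbers.

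With a replicate block, the ratio of peaks stayed at 9.12 and the exact sign-flip test gave p = 0.25, the smallest 3 pairs allow. Deviations of same-numbered libraries correlated at 0.0906, -0.0363 and 0.0744, and those of libraries with other numbers at -0.103 to 0.0698. Whether a number stands for the same collection at both stages was not tested. Other promoter and motif windows were not run. Peaks per list are equal by construction with equal numbers, so that ratio was not computed there.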

Other observations

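A set of sharp sites linked 2-cell replicate 1 with 4-cell replicate 2. It was found after the data had been seen, and no test was made. On placed chromosomes, 41 regions had a peak in these 2 and none of the other 4 libraries. In 16 of them the fold enrichment was at least 5 in both, against 0 in the other pairs of a 2-cell and a 4-cell library apart from 7 for 2-cell replicate 3 with 4-cell replicate 1. Of the 16, 12 had a peak in at most 5 of the 30 libraries. Without the limit on fold enrichment, 23 of the 41 had a peak in at most 5 libraries, against 59 of 532 for 2-cell replicate 3 with 4-cell replicate 1, 47 of 150 for 2-cell replicate 3 with 4-cell replicate 2 and 10 of 15 for 2-cell replicate 2 with 4-cell replicate 3. The 16 lay on 12 chromosomes, 2 of the regions on the X. The strongest were chr22:8338666-8338942, with fold enrichments of 10.1 in 2-cell replicate 1 and 8.68 in 4-cell replicate 2, chr29:374684-374929 with 9.77 and 7.37, and chr15:79433316-79433585 with 9.44 and 7.11.

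Replicate 3 of the 8-cell embryos had a peak at 13 of the 16, and each of the other 27 libraries at 4 or fewer, with 0 in 11 libraries, among them the 4 whose absence defines the set. At the site on chromosome 22 it had a fold enrichment of 6.23. These 3 libraries carry different replicate numbers, and whether they share a collection, embryos or a step of preparation was not tested. None of the regions above was named from this link. Among the strongest peaks of 2-cell replicate 1 it could weigh more. Of its top 100 by −log10 p on placed chromosomes, 4-cell replicate 2 covered 99%. The shares in 4-cell replicates 1 and 3 were 81% and 80%. How far the link raises the overlap values of this pair was not tested.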
